A study of Homo sapiens with 6 samples.

Results

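The nuclear genes of oxidative phosphorylation were followed in HT29 cells, a human colorectal cancer cell line, after siRNA against RNF6 and after a nonspecific control siRNA. RNF6 encodes a RING-finger ubiquitin ligase. Genes were taken by name: every symbol that started with NDUFA, NDUFB, NDUFC, NDUFS, NDUFV, UQCR, COX4, COX5, COX6, COX7, COX8 or ATP5, together with SDHA, SDHB, SDHC, SDHD and CYC1. Of the 56638 symbols in the count tables, 228 carried such a name. Pseudogenes, of which there were 130, and 2 antisense names were left out, and 96 genes remained. Enough reads for a test were present for 87 of them, among 14685 genes tested in all.

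There were 3 RNF6 siRNA libraries and 3 control siRNA libraries, all made from total RNA of HT29 cells at passages 16 to 19, grown in the same serum-containing medium. The number of siRNA sequences, their letters and the time after transfection were not given in the sources used here. Nothing says that the 3 libraries of a group came from separate cultures, so the p-values cover only how far these libraries differ among themselves, a spread that may be technical. All libraries come from 1 cell line, and the counts are of RNA, not of protein or respiration.

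Oxidative phosphorylation takes place on the inner mitochondrial membrane. Complex I oxidises NADH and complex II oxidises succinate. Both pass electrons through ubiquinone to complex III, then through cytochrome c to complex IV, which reduces oxygen. Complexes I, III and IV pump protons, and complex V, the ATP synthase, lets the protons back and makes ATP. Most subunits are encoded in the nucleus and imported, and the rest are encoded in mitochondrial DNA. Dedicated assembly factors put the complexes together without staying in them. Many of the nuclear genes are known to have short promoters with sites for NRF1, for the ETS factor GABP and for YY1.

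Promoter windows are shown for 4 called genes and a neighbour, from RefSeq (build GRCh38.p14, 250 bases before to 50 bases after the start, written 5′ to 3′ on the strand of the gene). ATP5J, NDUFAF1 and UQCRFS1 had the largest called falls, and NDUFB6 had the largest called rise among genes with an entry. GABPA, which encodes the DNA-binding part of GABP, is shown because it starts next to ATP5J on the other strand. Capitals mark the ETS word CCGGAAGT (ACTTCCGG on the other strand) and the YY1-type word AAGATGGC (GCCATCTT on the other strand). Lower case throughout means only that none of the words searched is in that window. The windows lie at chr21:25734855-25735154 (minus strand) for ATP5J, chr21:25734722-25735021 (plus strand) for GABPA, chr15:41402447-41402746 (minus strand) for NDUFAF1, chr19:29213102-29213401 (minus strand) for UQCRFS1 and chr9:32573110-32573409 (minus strand) for NDUFB6.
ATP5J: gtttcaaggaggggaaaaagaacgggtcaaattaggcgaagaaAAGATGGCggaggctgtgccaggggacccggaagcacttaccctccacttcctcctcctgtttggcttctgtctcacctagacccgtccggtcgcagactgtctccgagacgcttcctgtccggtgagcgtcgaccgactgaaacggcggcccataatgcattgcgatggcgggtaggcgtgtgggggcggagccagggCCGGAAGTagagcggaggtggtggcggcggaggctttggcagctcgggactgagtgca
GABPA: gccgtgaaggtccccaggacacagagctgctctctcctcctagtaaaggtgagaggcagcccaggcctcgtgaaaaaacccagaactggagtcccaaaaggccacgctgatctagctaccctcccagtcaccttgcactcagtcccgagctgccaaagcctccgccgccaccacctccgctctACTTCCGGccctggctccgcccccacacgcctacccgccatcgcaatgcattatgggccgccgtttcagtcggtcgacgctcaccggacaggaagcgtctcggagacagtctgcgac
NDUFAF1: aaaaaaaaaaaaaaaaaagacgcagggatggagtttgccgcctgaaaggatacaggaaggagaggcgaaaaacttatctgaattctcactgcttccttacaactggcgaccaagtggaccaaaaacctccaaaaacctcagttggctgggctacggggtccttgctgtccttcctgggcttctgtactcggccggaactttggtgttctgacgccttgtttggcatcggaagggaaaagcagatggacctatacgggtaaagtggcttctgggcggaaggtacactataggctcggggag
UQCRFS1: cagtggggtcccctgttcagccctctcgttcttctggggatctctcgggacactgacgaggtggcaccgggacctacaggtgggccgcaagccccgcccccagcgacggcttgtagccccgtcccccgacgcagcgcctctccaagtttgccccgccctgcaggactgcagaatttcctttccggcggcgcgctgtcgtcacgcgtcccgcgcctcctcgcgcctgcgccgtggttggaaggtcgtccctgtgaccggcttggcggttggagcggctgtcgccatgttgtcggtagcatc
NDUFB6: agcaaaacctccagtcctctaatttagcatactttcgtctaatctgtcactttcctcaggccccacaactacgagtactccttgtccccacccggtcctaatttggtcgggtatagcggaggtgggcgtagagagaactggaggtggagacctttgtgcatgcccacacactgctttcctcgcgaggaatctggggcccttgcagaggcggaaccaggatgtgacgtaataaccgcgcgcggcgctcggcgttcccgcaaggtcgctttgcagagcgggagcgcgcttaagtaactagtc

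The ATP5J and GABPA windows share 167 bases, and the ETS word of both is the same copy read on opposite strands. A further ATP5J window listed in RefSeq farther upstream also holds the NRF1-type word GCGCATGC (GCATGCGC on the other strand). An entry was present for 75 of the 96 genes. The NRF1-type word was found, on either strand, in the windows of 16 of these 75 genes (21.3%), against 3.68% of the 27305 genes with an entry and 6.30% of those tested here. The ETS word was in 11 of the 75 (14.7%), against 4.95% of all genes with an entry and 9.81% of those tested. The YY1-type word was in 12 of the 75 (16.0%), against 3.52% and 6.50%. None of the words is part of another. Of the 12 genes with an entry that were called lower after RNF6 siRNA, 3 held the NRF1-type word, 3 the ETS word and 3 the YY1-type word. These matches describe letters in a window and are not sites of measured binding.

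The reads assigned to genes numbered between 6808771 and 11071456 in the RNF6 siRNA libraries and between 7173957 and 9366532 in the control siRNA libraries. Levels are given as CPM, the count of a gene scaled to 1 common total of reads in genes, after TMM scaling between libraries. RNF6 itself was at 16.4, 16.2 and 16.8 CPM in the RNF6 siRNA libraries, against 54.2, 45.1 and 57.6 CPM in the control siRNA libraries. The groups did not overlap, and the level was 3.17-fold lower after RNF6 siRNA (log2 fold change -1.67, SE 0.13, edgeR adjusted p = 2.12e-06). The epithelial genes EPCAM and CDH1 lay between 103.9 and 241.6 CPM, and the intestinal factor CDX2 lay between 13.2 and 18.1 CPM. CDX1 had no read, and the intestinal genes VIL1, LGALS4, CEACAM5 and MUC13 were at or near 0 (at most 1.45 CPM) in these libraries labelled HT29. The 12 epithelial markers summed to between 2438 and 2821 CPM in the RNF6 siRNA libraries and to between 4339 and 5637 CPM in the control siRNA libraries. Of the 7 that were tested, 4 fell: KRT8 (log2 fold change -1.29), KRT18 (-1.62), KRT19 (-0.60) and KRT20 (-1.60), with edgeR adjusted p between 3.60e-06 and 0.00549. The share called lower was 57.1%, beside 16.1% of all tested genes, and none was called higher, beside 16.6%. Immune markers, with CD68 at 0 in every library, summed to at most 1.16 CPM in RNF6 siRNA libraries and 2.23 CPM in control siRNA libraries. Fibroblast and endothelial markers summed to between 70.5 and 85.5 CPM in RNF6 siRNA libraries and between 51.4 and 67.3 CPM in control siRNA libraries, nearly all of it COL1A1, with PECAM1 at 0 in every library. Of the 3 tested, COL1A1 was called higher (log2 fold change 0.41, edgeR adjusted p = 0.0197) and VWF lower (-1.02, edgeR adjusted p = 0.0283). These shares were 33.3% and 33.3%, beside 16.6% and 16.1% of all tested genes. COL1A1 was called in 10 of 14 alternative fits and VWF in 8. Whether any of these differences has a part in the results on respiratory genes was not tested.

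Across the 87 tested genes, RNF6 siRNA was followed by a rise in 4 and a fall in 14, and 69 did not pass the test. The genes that rose include the subunit genes NDUFB6 of complex I, SDHA of complex II and UQCRC2 of complex III. The genes that fell include the peripheral-stalk gene ATP5J, the c-subunit gene ATP5G3, the Rieske protein gene UQCRFS1, and 4 of the 7 tested complex I assembly factors named NDUFAF. Calls rest on edgeR's quasi-likelihood test, Benjamini-Hochberg adjusted over all 14685 genes, with a threshold of 0.05. In the whole transcriptome, 16.6% of tested genes were called higher and 16.1% called lower. The share called lower among the respiratory genes was 16.1%, the same as the background, and the share called higher was 4.60%. A fitted log2 fold change below 0 was seen for 60 of the 87 genes and above 0 for 27. Their median was -0.11, beside 0.006 over all tested genes. In bulk RNA of this kind, fewer cells of a type and less RNA per cell cannot be told apart.

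**Figure D1:**
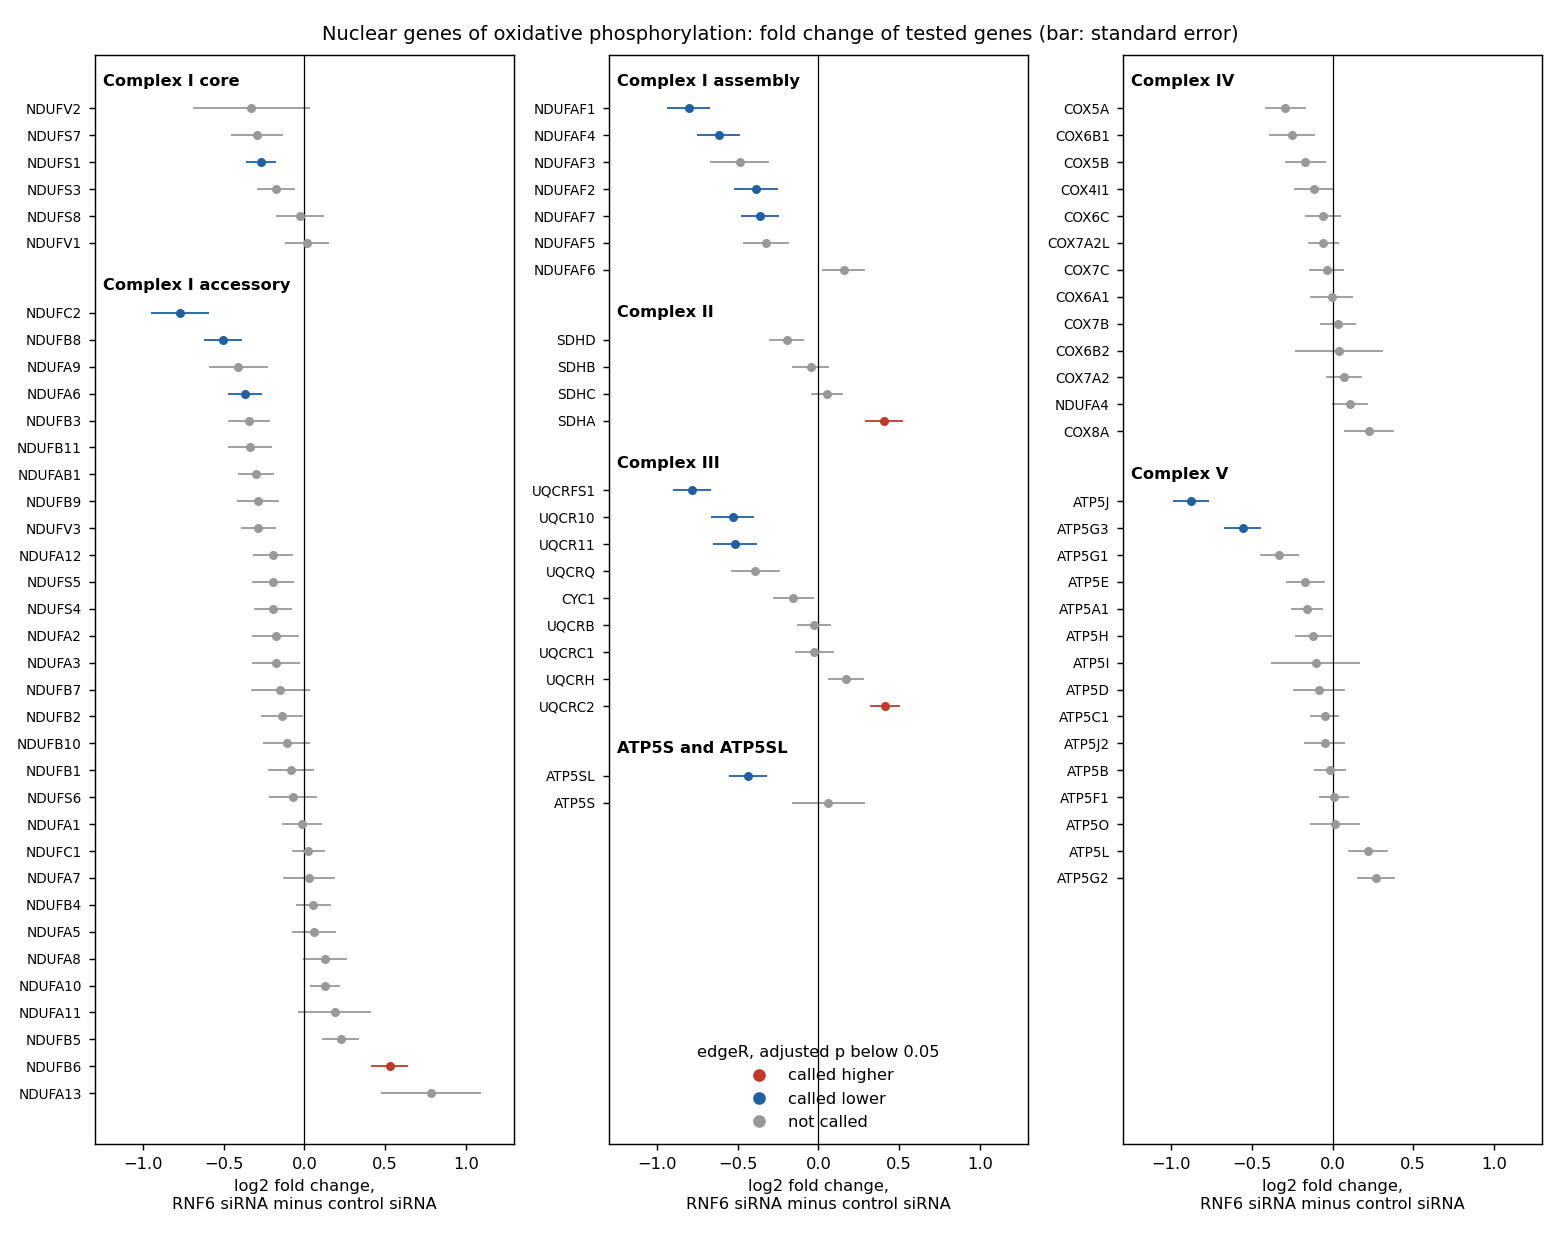
Log2 fold change (horizontal axis, RNF6 siRNA minus control siRNA) of tested genes, grouped by complex, with the standard error as a bar; red marks genes called higher, blue genes called lower and grey genes that were not called. NDUFB6 stands at 0.53 on the right, ATP5J at -0.88 on the left, and no complex IV gene is coloured.

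All 3 RNF6 siRNA libraries were above all 3 control siRNA libraries for 5 of the 87 genes and below them for 19. Over all tested genes, 22.4% had every RNF6 siRNA library above every control siRNA library and 21.8% had every one below. With 3 libraries against 3, an exact permutation test of a single gene could not give a p below 0.1. The libraries of a group differed among themselves in these genes as a whole. The median deviation of the 87 genes from their overall mean (log2) was 0.076, -0.093 and -0.127 in RNF6 siRNA replicates 1, 2 and 3, and -0.108, 0.241 and 0.031 in control siRNA replicates 1, 2 and 3. Over all tested genes the same deviation lay between -0.004 and 0.009. Control siRNA replicate 2 was the highest control library for 73 of the 87 genes and replicate 1 the lowest for 70. The share of counts that the counter placed in no feature was 7.26%, 8.60% and 9.23% in RNF6 siRNA replicates 1, 2 and 3 and 9.04%, 5.90% and 7.07% in control siRNA replicates 1, 2 and 3. The library with the lowest such share, control siRNA replicate 2, had the highest deviation, and the 3 libraries with the highest shares had the 3 lowest deviations. Its part in the results was not tested.

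The number of genes called also shifted with the libraries used. Without control siRNA replicate 1, 4 genes were called higher and 30 lower (4.60% and 34.5% of the 87), beside 19.4% and 19.7% of all genes tested in that fit. Leaving out control siRNA replicate 2 gave 7 higher and 13 lower, beside 14% and 14.3% of all genes, and leaving out control siRNA replicate 3 gave 3 higher and 9 lower, beside 10.1% and 10.7%. Without RNF6 siRNA replicate 1 there were 3 higher and 17 lower (3.45% and 19.5% of the 87), beside 15.5% and 14.9% of all genes. Without RNF6 siRNA replicate 2 there were 4 higher and 8 lower, beside 12.5% and 12% of all genes. Without RNF6 siRNA replicate 3 there were 3 higher and 7 lower, beside 10.3% and 9.94%. The transcripts of these genes are short, with a median of 958 nt against 2845 nt over all tested genes. With each library's trend on transcript length and GC content removed, 13 genes were called higher and 24 lower (14.9% and 27.6%), beside 24.7% and 24.5% of all genes in that fit. Of the 18 called genes, 10 were called in all 14 alternatives run, among them NDUFB6, UQCRC2, ATP5J, NDUFAF1, UQCRFS1, NDUFC2, NDUFAF4, ATP5G3 and NDUFB8.

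**Figure D2:**
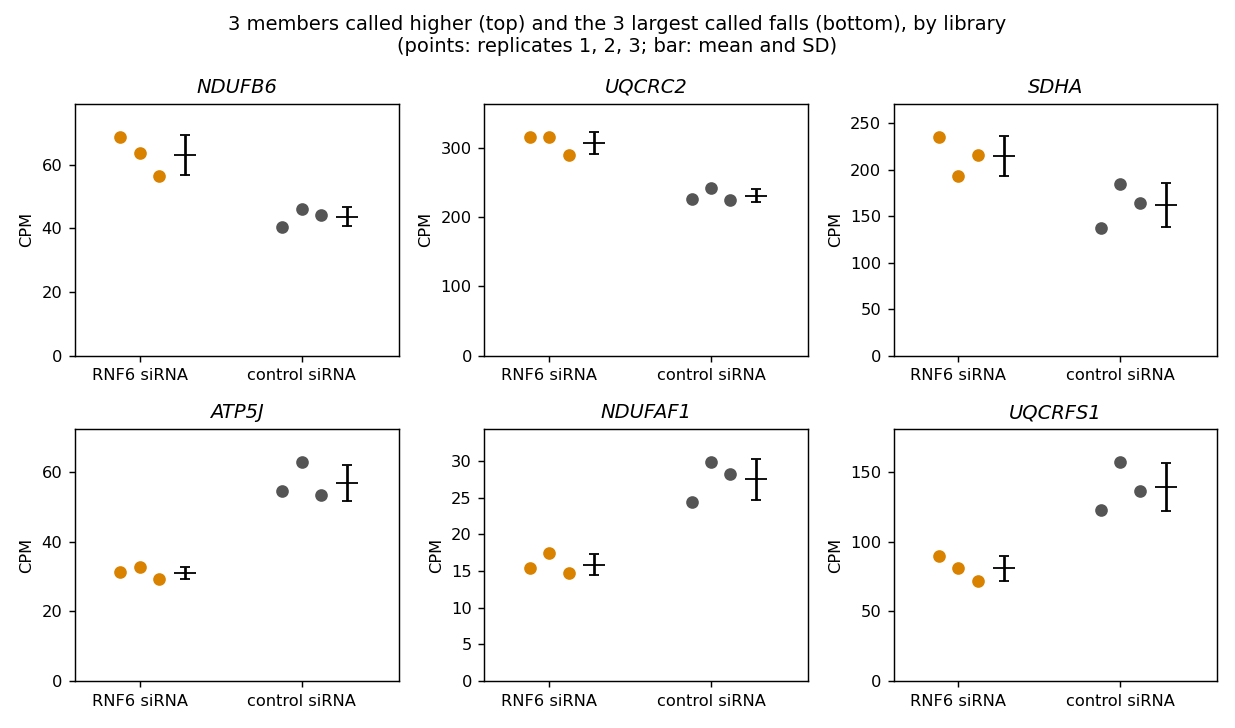
CPM by library (vertical axis, starting at 0) of 3 genes called higher (top row) and of the 3 genes with the largest called falls (bottom row), with RNF6 siRNA in orange on the left and control siRNA in grey on the right; points are replicates 1, 2 and 3, and the bar is the mean and SD. The groups are separate in each panel, as for ATP5J, at 29.3 to 32.8 CPM after RNF6 siRNA and 53.5 to 62.9 CPM after control siRNA.

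The catalytic core of complex I includes 7 nuclear genes, all tested. Their median log2 fold change was -0.18, and NDUFS1 was called lower. NDUFS7, an iron-sulfur subunit near the ubiquinone site, averaged 33.9 ± 5.69 CPM after RNF6 siRNA and 41.5 ± 8.61 CPM after control siRNA (mean ± SD, n = 3 each, as for all averages below) with an edgeR adjusted p of 0.186, and 49.1% of its annotated exon length is shared with other genes.

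NDUFS1, the large iron-sulfur subunit at the NADH end, was at 119, 114 and 113 CPM after RNF6 siRNA and 143, 134 and 140.2 CPM after control siRNA. The groups did not overlap, but the fall was small (log2 fold change -0.27, SE 0.09, edgeR adjusted p = 0.0386). The call was lost without RNF6 siRNA replicate 1 (adjusted p = 0.0675), replicate 2 (adjusted p = 0.0864) or replicate 3 (adjusted p = 0.138), and without control siRNA replicate 3 (adjusted p = 0.131). NDUFV1, which binds the flavin, had the highest level per transcript length of the core at 105.3 CPM per kb, and its log2 fold change was 0.02. NDUFV2, an iron-sulfur subunit beside NDUFV1, was listed at only 1.56, 2.94 and 2.95 CPM after RNF6 siRNA and 4.66, 1.56 and 3.19 CPM after control siRNA. Its pseudogene NDUFV2P1 held 1198 reads over the 6 libraries against 148 for NDUFV2, so the split of reads between the copies is uncertain. NDUFV2P1 was at 23.0, 18.5 and 19.5 CPM after RNF6 siRNA and 23.2, 23.7 and 23.6 CPM after control siRNA (edgeR adjusted p = 0.238).

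Around the core sit the accessory subunits, 30 genes that were all tested. NDUFB6 rose, NDUFC2, NDUFB8 and NDUFA6 fell, and 26 did not pass the test. The shares called were 3.33% higher and 10.0% lower, beside 16.6% and 16.1% of all tested genes. Their median log2 fold change was -0.14. NDUFB6, a subunit of the membrane arm, was at 68.9, 63.7 and 56.6 CPM in RNF6 siRNA libraries and 40.5, 46.2 and 44.4 CPM in control siRNA libraries. The lowest RNF6 siRNA library lay above the highest control library (1.44-fold, log2 fold change 0.53, SE 0.11, edgeR adjusted p = 0.00345). NDUFC2, another membrane-arm subunit, was at 5.04, 4.42 and 3.85 CPM after RNF6 siRNA against 6.86, 7.37 and 8.40 CPM after control siRNA. It was 1.71-fold lower (log2 fold change -0.77, SE 0.18, edgeR adjusted p = 0.00599), at a low level, and 18.1% of its exon length is shared with other genes, among them the readthrough NDUFC2-KCTD14.

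NDUFB8, also of the membrane arm, was at 32.5, 31.9 and 28.8 CPM after RNF6 siRNA and 39.5, 48.9 and 43.5 CPM after control siRNA. It was lower in all 3 RNF6 siRNA libraries (log2 fold change -0.51, SE 0.12, edgeR adjusted p = 0.0058). Its exons overlap those of HIF1AN and other genes over 48.5% of their length, and whether the counting used strand is not given in the sources used here. NDUFA6, which binds the acyl carrier protein NDUFAB1 in the complex, was at 68.1, 60.9 and 64.3 CPM after RNF6 siRNA and 76.3, 88.7 and 84.5 CPM after control siRNA. The log2 fold change was -0.37 (SE 0.10, edgeR adjusted p = 0.0171), and the call was lost without RNF6 siRNA replicate 2 (adjusted p = 0.0626), RNF6 siRNA replicate 3 (adjusted p = 0.0688) or control siRNA replicate 3 (adjusted p = 0.0732).

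The accessory subunit with the largest fitted rise did not pass. NDUFA13, also called GRIM-19 and reported to bind STAT3, was at 4.95, 2.80 and 3.67 CPM after RNF6 siRNA and 2.19, 3.24 and 1.38 CPM after control siRNA, so the groups overlapped (log2 fold change 0.78, SE 0.31, edgeR adjusted p = 0.068). It shares 21.0% of its exon length with YJEFN3 and other genes. NDUFS5 had the highest level per length of the accessory subunits, 333.9 CPM per kb, with a log2 fold change of -0.19 (edgeR adjusted p = 0.279). Without control siRNA replicate 1, the number of accessory subunits called lower was 11 in place of 3, beside 19.7% of all genes in that fit. Without RNF6 siRNA replicate 1 it was 5, beside 14.9% of all genes. Without control siRNA replicate 2, 2 accessory subunits were called higher, beside 14% of all genes.

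The assembly factors of complex I whose names begin with NDUFAF help to build the complex and do not stay in it. Of 7 tested, NDUFAF1, NDUFAF4, NDUFAF2 and NDUFAF7 fell (57.1%, against 16.1% of all tested genes), and the median log2 fold change of the 7 was -0.39. Their summed level was 131, 134 and 119 CPM in the RNF6 siRNA libraries and 161, 188 and 169 CPM in the control siRNA libraries. These sums did not overlap between the groups.

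NDUFAF1, a member of the complex that builds the membrane arm, was at 15.4, 17.5 and 14.8 CPM after RNF6 siRNA and 24.4, 29.9 and 28.3 CPM after control siRNA. The highest RNF6 siRNA library was below the lowest control library, and the level was 1.75-fold lower (log2 fold change -0.81, SE 0.13, edgeR adjusted p = 0.00054). NDUFAF4 was at 21.4, 27.4 and 22.1 CPM after RNF6 siRNA and 35.9, 40.1 and 32.0 CPM after control siRNA, again without overlap (log2 fold change -0.62, SE 0.13, edgeR adjusted p = 0.00371). NDUFAF3, the partner with which NDUFAF4 acts, was at 21.9, 16.5 and 18.4 CPM after RNF6 siRNA and 19.5, 34.0 and 26.3 CPM after control siRNA. The groups overlapped for NDUFAF3, and it did not pass (log2 fold change -0.49, edgeR adjusted p = 0.0563).

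NDUFAF2, a factor of the late steps, was at 18.2, 17.5 and 15.7 CPM after RNF6 siRNA and 19.3, 25.3 and 22.2 CPM after control siRNA (log2 fold change -0.39, SE 0.14, edgeR adjusted p = 0.0447). NDUFAF7, a methyltransferase that acts on a subunit of the complex, was at 21.7, 21.3 and 21.5 CPM after RNF6 siRNA and 28.3, 25.2 and 29.5 CPM after control siRNA (log2 fold change -0.36, SE 0.12, edgeR adjusted p = 0.0312). Neither set of libraries overlapped, but both calls lie near the threshold. The NDUFAF2 call was lost without RNF6 siRNA replicate 2 (adjusted p = 0.0878) or 3 (adjusted p = 0.181) and without control siRNA replicate 2 (adjusted p = 0.164) or 3 (adjusted p = 0.114), and with DESeq2 (adjusted p = 0.0704). The NDUFAF7 call was lost without RNF6 siRNA replicate 1 (adjusted p = 0.0652), 2 (adjusted p = 0.0727) or 3 (adjusted p = 0.101), without control siRNA replicate 3 (adjusted p = 0.139) and with DESeq2 (adjusted p = 0.0561). The count of assembly factors called lower is then 2 of 7 without RNF6 siRNA replicate 2, RNF6 siRNA replicate 3 or control siRNA replicate 3. Over all genes, the share called lower in these fits was 12%, 9.94% and 10.7%. NDUFAF5, which hydroxylates NDUFS7, averaged 14.5 ± 2.30 CPM after RNF6 siRNA and 18.0 ± 1.16 CPM after control siRNA (log2 fold change -0.32, edgeR adjusted p = 0.103). NDUFAF6 was the only one of the 7 with a fitted value above 0 (0.16, edgeR adjusted p = 0.398).

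Complex II, succinate dehydrogenase, is shared by the respiratory chain and the citric acid cycle and has 4 genes, all nuclear. SDHA, the flavin subunit that oxidises succinate, was at 236, 193 and 216 CPM after RNF6 siRNA and 138, 184 and 164 CPM after control siRNA. The lowest RNF6 siRNA library was only just above the highest control library (1.33-fold, log2 fold change 0.41, SE 0.12, edgeR adjusted p = 0.0193). Its call was lost without RNF6 siRNA replicate 1 (adjusted p = 0.0611), RNF6 siRNA replicate 3 (adjusted p = 0.0719) or control siRNA replicate 3 (adjusted p = 0.0764). The other 3 genes did not pass. The iron-sulfur subunit SDHB was at 125, 124 and 104 CPM after RNF6 siRNA and 113, 135 and 117 CPM after control siRNA, with overlap (log2 fold change -0.05, SE 0.11). The membrane anchor SDHC was at 71.6, 70.6 and 66.9 CPM after RNF6 siRNA and 69.8, 65.5 and 66.3 CPM after control siRNA (log2 fold change 0.05, SE 0.10), and its sign turned to -0.12 with the length and GC trend removed. SDHD, the other anchor, was below the controls in all 3 RNF6 siRNA libraries, at 81.5, 87.6 and 71.8 CPM after RNF6 siRNA and 95.5, 90.4 and 90.0 CPM after control siRNA (log2 fold change -0.20, SE 0.11, edgeR adjusted p = 0.171).

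Complex III held genes that moved in both directions. Of 9 tested, UQCRC2 rose, UQCRFS1, UQCR10 and UQCR11 fell, and 5 did not pass. The shares called were 11.1% higher and 33.3% lower, beside 16.6% and 16.1% of all tested genes. UQCRC2, a core protein on the matrix side, was at 317, 317 and 289.6 CPM after RNF6 siRNA and 226, 243 and 226 CPM after control siRNA. All RNF6 siRNA libraries were above all control libraries (1.33-fold, log2 fold change 0.41, SE 0.09, edgeR adjusted p = 0.00426). The other core protein gene, UQCRC1, averaged 284 ± 33.3 CPM after RNF6 siRNA and 289.6 ± 42.6 CPM after control siRNA (log2 fold change -0.03).

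UQCRFS1, the Rieske iron-sulfur protein that takes electrons from ubiquinol, was at 89.4, 81.1 and 71.7 CPM after RNF6 siRNA against 123, 157 and 136 CPM after control siRNA. Each RNF6 siRNA library lay below each control library, and the level was 1.72-fold lower (log2 fold change -0.78, SE 0.12, edgeR adjusted p = 0.000358). Its pseudogene UQCRFS1P1 was at 11.1, 8.09 and 9.48 CPM after RNF6 siRNA and 16.3, 20.5 and 23.6 CPM after control siRNA and also fell (log2 fold change -1.07, SE 0.17, edgeR adjusted p = 0.000423). The 3 UQCRFS1 pseudogenes held 13.7% as many reads as UQCRFS1 itself, and how reads were split between the copies cannot be read from the counts.

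The small subunits UQCR10 and UQCR11 fell by similar amounts. UQCR10 was at 83.4, 72.4 and 63.9 CPM after RNF6 siRNA and 90.0, 122 and 105 CPM after control siRNA (log2 fold change -0.53, SE 0.13, edgeR adjusted p = 0.00869). UQCR11 was at 131, 111 and 109 CPM after RNF6 siRNA and 134, 199 and 169 CPM after control siRNA (log2 fold change -0.52, SE 0.14, edgeR adjusted p = 0.0118). Neither gene had overlapping groups, although the gap was narrow for UQCR11. Without RNF6 siRNA replicate 3, UQCR10 (adjusted p = 0.06) and UQCR11 (adjusted p = 0.067) were not called, which left 1 of 9 genes called lower, and without RNF6 siRNA replicate 2 UQCR11 was not called (adjusted p = 0.0564). UQCRQ, also a small subunit, had overlapping groups and did not pass (log2 fold change -0.39, edgeR adjusted p = 0.0671). CYC1, cytochrome c1, had the highest level per length of the complex at 205.2 CPM per kb and a log2 fold change of -0.16 (edgeR adjusted p = 0.382).

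**Figure D3:**
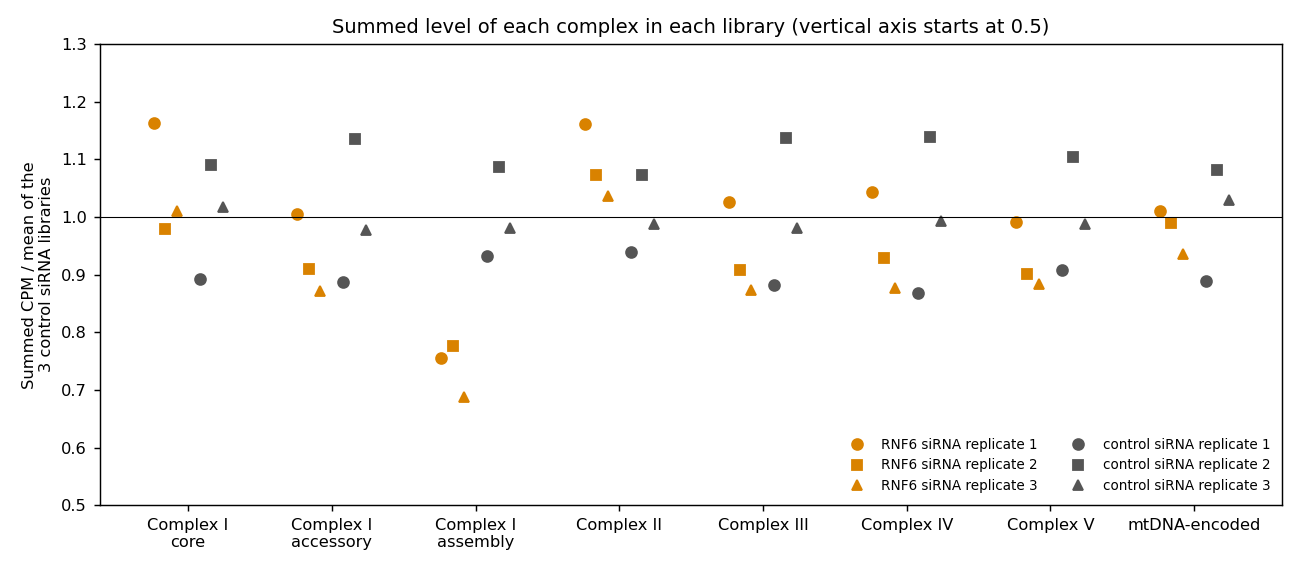
Summed CPM of the genes of each complex in each library (vertical axis), divided by the mean of the 3 control siRNA libraries; the axis starts at 0.5, RNF6 siRNA is orange and control siRNA grey, and the shapes are replicates 1, 2 and 3. The groups overlap for every set except the complex I assembly factors named NDUFAF, which sum to 118.7 to 134.1 CPM after RNF6 siRNA and 160.9 to 187.6 CPM after control siRNA.

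In the sum over subunits, no complex stood apart between the groups. Summed complex I core subunits were at 587 ± 54.7 CPM after RNF6 siRNA and 559 ± 56.2 CPM after control siRNA, and accessory subunits at 1892 ± 139 CPM after RNF6 siRNA and 2037 ± 256 CPM after control siRNA. Complex II summed to 482 ± 28.5 CPM after RNF6 siRNA and 443 ± 29.9 CPM after control siRNA, and complex III to 1507 ± 129 CPM after RNF6 siRNA and 1609 ± 207 CPM after control siRNA. The libraries of the groups overlapped in each of these sums. All 96 genes together came to 10057 ± 747 CPM after RNF6 siRNA and 10679 ± 1209 CPM after control siRNA, a difference smaller than the SD of the control libraries.

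Complex IV, cytochrome c oxidase, had 13 tested nuclear genes. None of them was called in edgeR's quasi-likelihood test, beside 16.6% of all tested genes called higher and 16.1% called lower. At an unadjusted p below 0.05 there was 1 gene, COX5A, and DESeq2 and limma-voom each called 0. The largest fitted fall was that of COX5A, a matrix-side subunit that averaged 121 ± 11.7 CPM after RNF6 siRNA and 148 ± 23.5 CPM after control siRNA (log2 fold change -0.29, edgeR adjusted p = 0.0898), and the largest fitted rise that of COX8A (0.22, edgeR adjusted p = 0.295). The median log2 fold change of the 13 was -0.04. Without control siRNA replicate 1, 3 of the 13 were called lower, beside 19.7% of all genes in that fit. With the length and GC trend removed 2 were called higher and 1 lower, beside 24.7% and 24.5% of all genes. The summed level was 1966 ± 177 CPM after RNF6 siRNA and 2070.2 ± 279 CPM after control siRNA, with overlap.

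Several complex IV subunits exist as tissue forms. The widely expressed forms dominated in all libraries and the forms known from muscle, lung or testis were near 0. COX4I1, the ubiquitous form, was at 505, 415 and 414 CPM after RNF6 siRNA and 412, 552 and 483 CPM after control siRNA, and at 647.3 CPM per kb it had the highest level per length of the complex. COX4I2, the lung form, had 1 read over the 6 libraries. COX6A2 and COX7A1, the forms of heart and skeletal muscle, had 1 read and 14 reads, COX8C had 12, and COX7B2 had none. NDUFA4L2, a hypoxia-responsive relative of NDUFA4, had 9, 4 and 17 reads in RNF6 siRNA libraries and 4, 1 and 8 reads in control siRNA libraries. None of these 6 genes had enough reads for the test.

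The forms with enough reads overlapped between the groups. COX6A1 averaged 40.7 ± 3.24 CPM after RNF6 siRNA and 40.9 ± 7.0 CPM after control siRNA, and COX7A2 averaged 165 ± 11.6 CPM after RNF6 siRNA and 157 ± 21.5 CPM after control siRNA. COX7A2L, which helps complexes III and IV associate, averaged 108 ± 3.59 CPM after RNF6 siRNA and 112 ± 7.45 CPM after control siRNA. COX6B1 averaged 132 ± 15.3 CPM after RNF6 siRNA and 157 ± 31.5 CPM after control siRNA. COX6B2, known from testis, was low, at 2.26 ± 0.271 CPM after RNF6 siRNA and 2.20 ± 0.611 CPM after control siRNA, and NDUFA4 averaged 107 ± 7.41 CPM after RNF6 siRNA and 98.7 ± 11.5 CPM after control siRNA. The log2 fold changes of these 6 genes lay between -0.25 and 0.11, and none was called. COX6A1 has to be read with its pseudogenes, which held 5113 reads against 2245 for COX6A1 itself. COX6A1P2 was at 104, 84.0 and 81.4 CPM in RNF6 siRNA libraries and 79.8, 109.9 and 99.5 CPM in control siRNA libraries (edgeR adjusted p = 0.58).

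In complex V, the ATP synthase, 15 of 16 genes were tested, ATP5J and ATP5G3 fell, and 13 did not pass. The share called lower was 13.3%, beside 16.1% of all tested genes, and none was called higher, beside 16.6%. ATP5J, coupling factor 6 of the peripheral stalk, was at 31.2, 32.8 and 29.3 CPM after RNF6 siRNA and 54.5, 62.9 and 53.5 CPM after control siRNA. It had the largest fall of all 87 genes, 1.84-fold (log2 fold change -0.88, SE 0.11, edgeR adjusted p = 0.000102), and the groups were far apart. Its exons overlap those of GABPA and JAM2 over 23.1% of their length. GABPA, whose promoter window is shown above beside that of ATP5J, was at 36.9, 48.9 and 47.6 CPM after RNF6 siRNA and 39.6, 23.4 and 27.2 CPM after control siRNA. Control siRNA replicate 1 lay within the range of the RNF6 siRNA libraries, and GABPA was called higher (log2 fold change 0.57, SE 0.18, edgeR adjusted p = 0.0262), so the neighbours were called in opposite directions. The GABPA call was lost without RNF6 siRNA replicate 2 (adjusted p = 0.103) or 3 (adjusted p = 0.116) and without control siRNA replicate 2 (adjusted p = 0.0521) or 3 (adjusted p = 0.122).

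The genes of the beta and alpha subunits of the synthase were not called. ATP5B, the beta subunit and at 685.3 CPM per kb the highest per length of the complex, averaged 1254 ± 86.2 CPM after RNF6 siRNA and 1266 ± 100.3 CPM after control siRNA (log2 fold change -0.01, SE 0.10, with a sign that depended on the scaling and the libraries used). ATP5A1, the alpha subunit, averaged 866 ± 48.2 CPM after RNF6 siRNA and 965 ± 91.4 CPM after control siRNA (log2 fold change -0.16, SE 0.10, edgeR adjusted p = 0.255). The 15 tested genes had a median log2 fold change of -0.08 and a summed level of 3449.7 ± 217 CPM after RNF6 siRNA and 3728 ± 369 CPM after control siRNA. Without control siRNA replicate 1, 4 genes of the complex were called lower, beside 19.7% of all genes in that fit. Without control siRNA replicate 2, 2 were called higher, beside 14% of all genes.

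The c subunit of the proton-driven ring is made from ATP5G1, ATP5G2 and ATP5G3, which encode different import sequences and the same mature protein. ATP5G3 was at 242, 224 and 203 CPM after RNF6 siRNA and 282, 375 and 326 CPM after control siRNA. The groups did not overlap, and it was 1.47-fold lower (log2 fold change -0.56, SE 0.12, edgeR adjusted p = 0.00286). ATP5G1 was at 86.6, 70.2 and 76.5 CPM after RNF6 siRNA and 84.2, 107 and 102 CPM after control siRNA (log2 fold change -0.33, SE 0.12, edgeR adjusted p = 0.0515). ATP5G2 was at 124, 104 and 111 CPM after RNF6 siRNA and 86.6, 108 and 87.6 CPM after control siRNA (log2 fold change 0.27, SE 0.12, edgeR adjusted p = 0.0924). Neither ATP5G1 nor ATP5G2 passed, and both had overlapping groups.

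As a share of the 3 genes' summed CPM, ATP5G3 made up 53.4%, 56.3% and 51.9% in the RNF6 siRNA libraries and 62.3%, 63.6% and 63.2% in the control siRNA libraries. ATP5G2 made up 27.5%, 26.1% and 28.5% after RNF6 siRNA and 19.1%, 18.2% and 17.0% after control siRNA. The shares of these genes did not overlap between the groups, while ATP5G1 averaged 18.8% ± 1.03 after RNF6 siRNA and 18.9% ± 0.823 after control siRNA (SD, n = 3 each). The sum of the 3 genes was 414 ± 34.2 CPM after RNF6 siRNA and 519 ± 68.4 CPM after control siRNA. These shares are of reads, without correction for length, and were not tested.

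**Figure D4:**
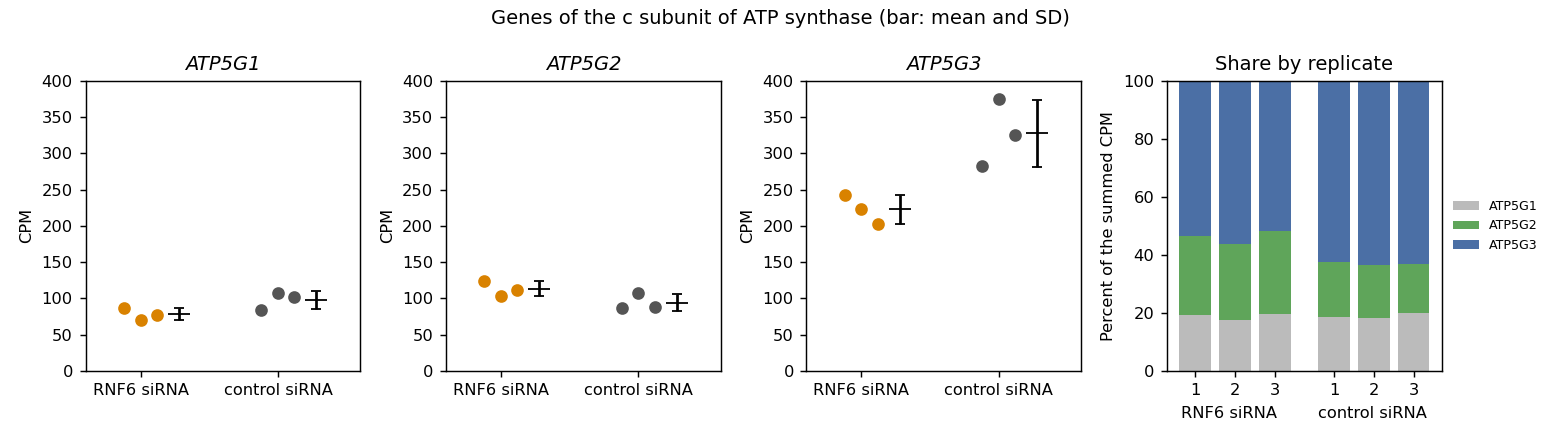
CPM by library of ATP5G1, ATP5G2 and ATP5G3 (first 3 panels, vertical axis from 0, points are replicates and the bar is the mean and SD) and the share of each gene in their sum by replicate (last panel, percent), with RNF6 siRNA on the left and control siRNA on the right. ATP5G3 makes up 51.9% to 56.3% of the sum after RNF6 siRNA and 62.3% to 63.6% after control siRNA.

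The name rule also took in 4 genes that are not subunits. ATP5SL, an assembly factor of the complex I membrane arm now named DMAC2, was at 46.5, 36.2 and 42.7 CPM after RNF6 siRNA and 52.4, 57.1 and 60.6 CPM after control siRNA. It fell without overlap between the groups (log2 fold change -0.44, SE 0.12, edgeR adjusted p = 0.0137). That call was lost without RNF6 siRNA replicate 2 (adjusted p = 0.0581), RNF6 siRNA replicate 3 (adjusted p = 0.0511) or control siRNA replicate 3 (adjusted p = 0.0747). ATP5S, its relative, was low at 3.76 ± 0.327 CPM after RNF6 siRNA and 3.63 ± 0.908 CPM after control siRNA and was not called. The readthrough genes ATP5J2-PTCD1 and NDUFC2-KCTD14 had 1 read and no read. ATP5L2, a copy of ATP5L, had 3 reads.

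The 13 protein genes of oxidative phosphorylation in mitochondrial DNA gave a summed 81957 ± 3269 CPM after RNF6 siRNA and 83715 ± 8335 CPM after control siRNA. None of the 13 was called in edgeR's quasi-likelihood test, beside 16.6% of all tested genes called higher and 16.1% called lower. DESeq2 and limma-voom also called none. An unadjusted edgeR p below 0.05 was seen for 2, MT-ND2 and MT-ND4L. Without control siRNA replicate 1, 3 were called lower, beside 19.7% of all genes in that fit. With the length and GC trend removed 4 were called higher, beside 24.7% of all genes. With that trend removed and the replicate number as a block, 3 were called higher, beside 22.1%. With no filter on low counts 1 was called lower, beside 7.87%.

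Assembly factors outside the name rule were set beside the NDUFAF genes. Of 40 tested, 4 rose and 12 fell (10.0% and 30.0%), beside 16.6% and 16.1% of all tested genes, and the median log2 fold change was -0.28. COX14, which is needed to bring COX1 into complex IV, was at 3.21, 3.97 and 2.77 CPM after RNF6 siRNA and 12.1, 15.5 and 11.8 CPM after control siRNA, 4.04-fold lower (log2 fold change -2.02, SE 0.19, edgeR adjusted p = 1.07e-05). TMEM126A was at 6.97, 5.59 and 7.60 CPM after RNF6 siRNA and 15.8, 23.1 and 22.2 CPM after control siRNA (log2 fold change -1.58, SE 0.18, edgeR adjusted p = 3.71e-05). TMEM126B was at 31.9, 34.9 and 29.4 CPM after RNF6 siRNA and 52.5, 58.7 and 51.3 CPM after control siRNA (log2 fold change -0.76, SE 0.11, edgeR adjusted p = 0.000302). COX15, an enzyme of haem A synthesis, was higher in all 3 RNF6 siRNA libraries, at 159.9, 154 and 164 CPM after RNF6 siRNA and 105, 96.2 and 100.3 CPM after control siRNA (log2 fold change 0.67, SE 0.09, edgeR adjusted p = 0.000194). The other 3 that were called higher, named after their values were seen, were UQCC1, ATPAF1 and ACAD9. Their log2 fold changes were 0.35, 0.35 and 0.30 (edgeR adjusted p = 0.0244, 0.0224 and 0.0356). UQCC1 was called in 9 of the 14 alternatives run, ATPAF1 in 8 and ACAD9 in 5. Higher and lower calls of the 40 genes are given with the shares of all genes in brackets. Without RNF6 siRNA replicate 1 they numbered 1 and 15 (15.5% and 14.9%), and without replicate 2 they numbered 2 and 7 (12.5% and 12%). Without RNF6 siRNA replicate 3 they numbered 2 and 6 (10.3% and 9.94%). Without control siRNA replicate 1 they numbered 4 and 18 (19.4% and 19.7%). Without control siRNA replicate 2 they numbered 2 and 10 (14% and 14.3%), and without replicate 3 they numbered 1 and 7 (10.1% and 10.7%).

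The citric acid cycle supplies complexes I and II with electrons. Of 18 tested genes of the cycle and of pyruvate dehydrogenase, 3 rose and 9 fell (16.7% and 50%), beside 16.6% and 16.1% of all tested genes. The median log2 fold change was -0.24. Lower calls numbered 8, 7 and 6 without RNF6 siRNA replicate 1, 2 and 3, beside 14.9%, 12% and 9.94% of all genes. They numbered 6 without control siRNA replicate 3 (beside 10.7%) and 4 with the replicate number as a block (beside 9%). SUCLG2, a subunit of the GTP-forming succinyl-CoA ligase, was at 17.1, 15.6 and 15.9 CPM after RNF6 siRNA and 46.8, 34.7 and 42.6 CPM after control siRNA (log2 fold change -1.35, SE 0.14, edgeR adjusted p = 1.57e-05). SUCLA2, its ATP-forming counterpart, was at 34.2, 40.5 and 35.0 CPM after RNF6 siRNA and 66.3, 60.5 and 63.7 CPM after control siRNA (log2 fold change -0.80, SE 0.11, edgeR adjusted p = 0.000161). Both lay below the controls in every RNF6 siRNA library. CS, citrate synthase, which opens the cycle, rose (log2 fold change 0.52, SE 0.09, edgeR adjusted p = 0.000822). IDH2, named after its values were seen, was also called higher.

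Among 13 tested regulators of respiratory genes, 3 rose and 5 fell (23.1% and 38.5%), beside 16.6% and 16.1% of all tested genes. MYC, a transcription factor of cell growth, was at 137, 109 and 111 CPM after RNF6 siRNA and 203, 240.0 and 219 CPM after control siRNA (log2 fold change -0.89, SE 0.11, edgeR adjusted p = 9.37e-05). TFB2M, a transcription factor of mitochondrial DNA, was at 19.1, 21.5 and 20.9 CPM after RNF6 siRNA and 33.1, 32.7 and 28.0 CPM after control siRNA (log2 fold change -0.61, SE 0.12, edgeR adjusted p = 0.00228). YY1 (log2 fold change 0.36, SE 0.09, edgeR adjusted p = 0.0104) and GABPB2, a partner of GABPA (0.58, SE 0.15, edgeR adjusted p = 0.0108), rose. GABPB1, a further GABPA partner named after its values were seen, was called lower (log2 fold change -0.42, SE 0.14, edgeR adjusted p = 0.0328). The GABPB1 call was lost without RNF6 siRNA replicate 1 (adjusted p = 0.0835), 2 (adjusted p = 0.0615) or 3 (adjusted p = 0.0962) or control siRNA replicate 1 (adjusted p = 0.0765). Without RNF6 siRNA replicate 3 no regulator was called higher by edgeR, with YY1 at adjusted p = 0.0545, GABPB2 at adjusted p = 0.0628 and GABPA at adjusted p = 0.116, and 3 were called lower. In the fit without RNF6 siRNA replicate 3, 10.3% of all genes were called higher and 9.94% lower. Lower calls of regulators also numbered 3 without RNF6 siRNA replicate 1, RNF6 siRNA replicate 2 or control siRNA replicate 3, beside 14.9%, 12% and 10.7% of all genes.

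Of 16 listed genes of ubiquinone synthesis, cytochrome c and other parts outside the name rule, 15 were tested. Of these, 3 rose and 1 fell (20% and 6.67%), beside 16.6% and 16.1% of all tested genes. COQ7, a hydroxylase of ubiquinone synthesis, was at 22.7, 21.9 and 22.4 CPM after RNF6 siRNA and 9.19, 9.37 and 11.1 CPM after control siRNA (log2 fold change 1.17, SE 0.13, edgeR adjusted p = 3.79e-05). PDSS2 and PDSS1, the subunits of the enzyme that makes the ubiquinone tail, had log2 fold changes of 0.74 (SE 0.15, edgeR adjusted p = 0.00209) and -0.50 (SE 0.13, edgeR adjusted p = 0.00825). CYCS, cytochrome c, was at 339, 378 and 344 CPM after RNF6 siRNA and 302, 265 and 288 CPM after control siRNA (log2 fold change 0.31, SE 0.10, edgeR adjusted p = 0.0234), a call lost without RNF6 siRNA replicate 2 (adjusted p = 0.0899) or 3 (adjusted p = 0.0655) and without control siRNA replicate 2 (adjusted p = 0.0769) or 3 (adjusted p = 0.101).

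Of 11 genes of the mitochondrial outer membrane, 1 rose and 4 fell (9.09% and 36.4%), beside 16.6% and 16.1% of all tested genes. TOMM22, an import receptor, was at 46.6, 45.5 and 41.9 CPM after RNF6 siRNA and 24.4, 27.1 and 29.4 CPM after control siRNA (log2 fold change 0.72, SE 0.12, edgeR adjusted p = 0.000469). VDAC2, a pore protein, was at 42.3, 40.2 and 41.0 CPM after RNF6 siRNA and 50.5, 67.1 and 57.3 CPM after control siRNA (log2 fold change -0.50, SE 0.12, edgeR adjusted p = 0.00648). TOMM40, the import channel, had a log2 fold change of -0.51 (edgeR adjusted p = 0.0172) and SAMM50, of the sorting machinery, of -0.35 (edgeR adjusted p = 0.0272). The TOMM40 call was lost without RNF6 siRNA replicate 2 (adjusted p = 0.0822) or 3 (adjusted p = 0.0623), and the SAMM50 call without RNF6 siRNA replicate 2 (adjusted p = 0.0815) or 3 (adjusted p = 0.0963) or control siRNA replicate 2 (adjusted p = 0.0946) or 3 (adjusted p = 0.0877). Lower calls numbered 2 without RNF6 siRNA replicate 2, 1 without RNF6 siRNA replicate 3, and 2 without control siRNA replicate 2 or 3. Over all genes, the share called lower in these fits was 12%, 9.94%, 14.3% and 10.7%, in that order.

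**Figure D5:**
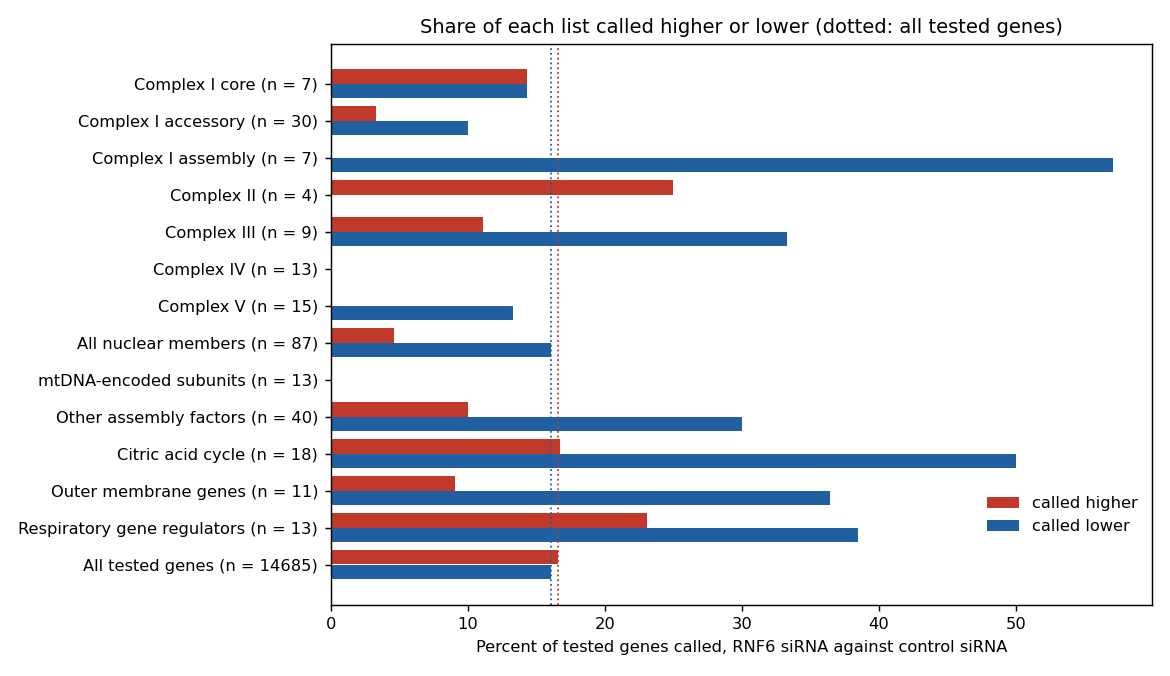
Percent of the tested genes of each list (horizontal axis, number tested beside the name) called higher (red) or lower (blue) after RNF6 siRNA; the dotted lines mark all 14685 tested genes, at 16.6% and 16.1%. Among the lists drawn, the blue bar is longest for the complex I assembly factors named NDUFAF (57.1% of 7), then the citric acid cycle (50% of 18). Complex II, complex IV and the mtDNA-encoded subunits have no blue bar.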

How the data were processed

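RNA-seq counts of 6 HT29 libraries were used as the authors deposited them: whole-number read counts per gene symbol, raw and not normalized. Per the submitters' processing notes, TopHat2 (2.0.11) and HTSeq were used with hg19/GRCh37. Their settings, strand included, are not stated in the labels. Rows that name no gene held 27.3% to 29.4% of each library's counts and were left out. Groups came from the sample titles. No 2 libraries agreed within sampling noise (chi-square per degree of freedom between 3.71 and 14.6 within groups).

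Genes were filtered with filterByExpr (minimum count 10), scaled by TMM (factors 0.985 to 1.02) and tested with edgeR 4.0.16 (quasi-likelihood, robust, two-sided) in R 4.3.3, with all 6 libraries, no covariate and Benjamini-Hochberg adjustment over all tested genes. The precision of a count follows its depth, between 6808771 and 11071456 reads per library. The script was tested on simulated data. Alternatives were upper-quartile scaling, DESeq2 1.42.0, limma-voom (3.58.1), other filters on low counts, removal of transcript length and GC trends, the replicate number as a block, and leaving out each library. Transcript lengths, GC and exon overlaps came from GENCODE 29 (GRCh38, while the counts were made on hg19), with no coordinates taken from it, and promoters from RefSeq.

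The genes and lists were chosen with earlier results of these data known. Within each group the text names every called gene up to 10, the largest rise and fall, the gene highest per length, complex II and the tissue or paralog pairs; in other lists up to 4 called genes with the smallest adjusted p. GABPA, UQCRC1, ATP5A1, NDUFS7, NDUFAF3, NDUFAF5 and UQCRQ were added for their place in the complexes after their values were seen. Results of some genes that this rule names are not reported here. ATP5J2LP, named as a pseudogene without a final digit and without a read, was left out with the pseudogenes.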

Additional observations from a re-analysis of the deposited data

How the results depend on the processing

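RNF6 was called lower in every alternative, with a log2 fold change between -1.77 and -1.60 when a library was left out. Over all genes, the calls were 1421 higher and 1321 lower with the replicate number as a block, and leaving out 1 library gave between 1514 and 2910 higher and between 1478 and 2967 lower. Among the respiratory genes, 13 were called higher and 24 lower with the length and GC trend removed (3332 and 3307 of 13489 genes in all), and 10 were called higher with that trend removed in the replicate block fit (20 lower). The replicate block alone gave 3 higher and 7 lower. Leaving out 1 library gave between 3 and 7 higher and between 7 and 30 lower. Their median log2 fold change stayed below 0 in all 14 alternatives, between -0.21 and -0.008 with a library left out, and was -0.03 with the length and GC trend removed. The cause of these shifts was not tested. Fits that leave 1 library out also rest on fewer libraries, and the part of that was not tested either.

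By group, removing the length and GC trend gave 5 higher and 8 lower accessory subunits of complex I and 6 lower NDUFAF assembly factors. It also gave 2 higher and 4 lower genes of complex III and 2 higher and 3 lower of complex V. The correlation of same-numbered libraries' deviations was -0.463, -0.252 and 0.052, and the highest of all pairs was 0.461, between RNF6 siRNA replicate 1 and control siRNA replicate 2. The deviations are from the mean of 3 libraries per group, so these correlations are tied to one another. They cannot decide whether same-numbered libraries were handled together. In the replicate block fit, SDHA (adjusted p = 0.0896), NDUFA6 (0.098), NDUFAF2 (0.137), NDUFAF7 (0.114), NDUFS1 (0.157), UQCR10 (0.0505), UQCR11 (0.0665) and ATP5SL (0.0677) were not called. Without a filter on low counts NDUFS1 (0.0893) and NDUFAF7 (0.0516) were not called, and with upper-quartile scaling NDUFS1 (0.0517) and NDUFAF2 (0.0584).

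The sign turned for 10 genes, none of them called in the fit used for the calls above. Of these, COX7A2 was called higher in 1 alternative, with the length and GC trend removed (log2 fold change 0.179, edgeR adjusted p = 0.0364). With the length and GC trend removed, log2 fold changes were 0.061 for ATP5B, -0.079 for ATP5S, 0.101 for COX6A1, 0.053 for COX7A2L, 0.052 for SDHB and -0.124 for SDHC. With the trend removed in the replicate block fit they were 0.061, -0.069, 0.106, 0.054, 0.053 and -0.125 in that order. COX6A1 was at 0.004 in limma-voom, 0.005 in the replicate block fit and 0.01 with upper-quartile scaling, where ATP5B was at 0.004. With a library left out the values ran between -0.076 and 0.042 for ATP5B, -0.079 and 0.249 for ATP5S, -0.105 and 0.136 for COX6A1, -0.082 and 0.29 for COX6B2, -0.038 and 0.162 for COX7A2, -0.116 and 0.142 for NDUFV1, -0.667 and 0.014 for NDUFV2, and -0.109 and 0.032 for SDHB. The cause was not tested. Over all named genes and alternatives, 887 values kept their direction and their side of the threshold, 110 lost the call and 21 gained it. Depth limits the low genes: NDUFV2, ATP5I, NDUFA13 and COX6B2 lay below 5.00 CPM in every library.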
